A study of Mus musculus with 12 samples.

Results

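Toll-like receptors and the lipopolysaccharide co-receptors Cd14 and Ly96 were measured as 10 genes of the 56941 in the count table, and all 10 were among the 15001 genes with enough counts to be tested. They were matched in the table by symbol: the receptors Tlr1, Tlr2, Tlr4, Tlr6, Tlr7, Tlr8, Tlr9 and Tlr13, with Cd14 and Ly96. The compressed cells were RAW264.7 macrophages, a mouse line, plated on porous inserts and held for 24 h below a 1% agarose cushion carrying a printed weight that pressed on them with 0.14 kPa (6 libraries). The control cells of the same line had the cushion without the weight for the same time (6 libraries). All 12 libraries therefore share the cushion and its medium, and the protocol names no microbial ligand for either group. The cells are 1 established line and not primary macrophages. Whether the libraries of a group were grown as separate cultures is not stated in the labels. A p-value here therefore reflects how these samples vary, and that variation may be technical.

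Toll-like receptors recognize molecules of microbes and of damaged cells. Most receptors at the cell surface bind lipids and lipoproteins, while most in endosomes bind nucleic acids and depend on the chaperone Unc93b1 to reach that compartment. Most of them pass the signal through the adaptor Myd88 to NF-κB, and Tlr3 and internalized Tlr4 use the adaptor Ticam1, also called TRIF, which leads to interferon genes. Cd14 hands lipopolysaccharide to Tlr4, and Ly96, also called MD-2, is the subunit of the Tlr4 complex in which the lipid sits.

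Each library held between 33460807 and 39103987 counts in the compressed group and between 37948795 and 40463545 counts in the control group. Macrophage markers fitted the label: 8 of 8 had a mean of 1 CPM (counts per 1000000) or more, with a summed level of 6651 to 7818 CPM in compressed libraries and 5418 to 5831 CPM in control libraries; the part of that difference in the results was not tested. Of 4 dendritic cell markers, 1 passed the count filter, and 0 of the B cell, T cell, fibroblast, epithelial, endothelial and glioma markers did. The compressed library with replicate number 6 stood apart from the other compressed libraries. The correlation of log2 CPM across genes was 0.968 to 0.975 for pairs that included it, 0.994 to 0.996 for the other compressed pairs and 0.996 to 0.997 for control pairs. Results are therefore given with and without it.

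Promoter sequences were available for 6 of the 10 genes (8 windows, from 250 bases before to 50 bases after the annotated start; RefSeq, GRCm38.p6). The windows of Tlr2, Tlr9 and Tlr13 are shown because transcripts of these genes moved in different directions or by different amounts, with matches to motifs of macrophage and inflammatory transcription factors in capitals. In Tlr2 the capitals mark matches to the κB motif, and in Tlr9 and Tlr13 they mark GAGGAA, the core bound by the myeloid factor PU.1, on either strand.
Tlr2, chr3:83841559-83841858, minus strand: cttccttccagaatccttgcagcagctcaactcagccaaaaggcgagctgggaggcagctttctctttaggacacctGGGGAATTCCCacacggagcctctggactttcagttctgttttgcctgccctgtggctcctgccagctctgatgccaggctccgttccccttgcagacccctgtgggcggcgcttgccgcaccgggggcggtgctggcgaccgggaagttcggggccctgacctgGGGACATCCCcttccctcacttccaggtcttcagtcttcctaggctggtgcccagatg
Tlr9, chr9:106222348-106222647, plus strand: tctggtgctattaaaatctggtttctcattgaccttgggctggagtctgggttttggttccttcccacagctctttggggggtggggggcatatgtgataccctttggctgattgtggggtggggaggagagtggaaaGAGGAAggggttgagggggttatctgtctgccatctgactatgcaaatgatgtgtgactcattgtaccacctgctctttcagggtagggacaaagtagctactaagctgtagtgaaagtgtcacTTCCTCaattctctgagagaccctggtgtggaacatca
Tlr13, chrX:106143025-106143324, plus strand: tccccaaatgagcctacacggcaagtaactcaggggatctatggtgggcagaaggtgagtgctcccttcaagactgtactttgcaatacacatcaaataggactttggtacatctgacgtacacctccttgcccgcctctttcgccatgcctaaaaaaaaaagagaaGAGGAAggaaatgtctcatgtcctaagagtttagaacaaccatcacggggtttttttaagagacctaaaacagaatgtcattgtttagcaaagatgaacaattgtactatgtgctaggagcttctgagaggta

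The PU.1 core was in 4 of the 8 windows (Tlr1, Tlr8, Tlr9 and Tlr13) and in 28.3% of 32851 promoter windows of the same length. The κB motif was in 1 of the 8, that of Tlr2, and in 8.46% of all windows. The AP-1 motif TGANTCA was found in Tlr9 alone among the 8 windows (7.81% of all). Both strands were searched. These are letter matches and not sites of binding, and no window was available for Tlr4, Tlr7, Cd14 or Ly96.

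Transcripts of the receptor family did not move together. With compression, Tlr2, Tlr4, Tlr6, Tlr13 and Cd14 rose, Tlr7 and Tlr9 fell, and Tlr1, Tlr8 and Ly96 did not pass the test (edgeR, adjusted p of 0.05 or less over all tested genes). That is 5 of 10 higher and 2 of 10 lower, where 24.5% of all tested genes were called higher and 21.9% lower. The compressed and control libraries did not overlap for 5 of the 10, against 33.6% of all tested genes. Without compressed replicate 6, the calls were 7 higher and 2 lower, where 33.8% of all genes were called higher and 32.2% lower. At an adjusted p of 0.01, 4 of the 10 were higher (18.6% of all genes) and 0 lower (16.2% of all genes), and with replicate number as a block 1 was lower (20.6% of all genes). The 2 lower calls at 0.05, Tlr7 and Tlr9, were also made by DESeq2 from the same counts. The 10 genes were chosen with results known, so these shares are a description with no test. In bulk RNA, fewer cells with a transcript and less of it per cell cannot be told apart.

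**Figure D1:**
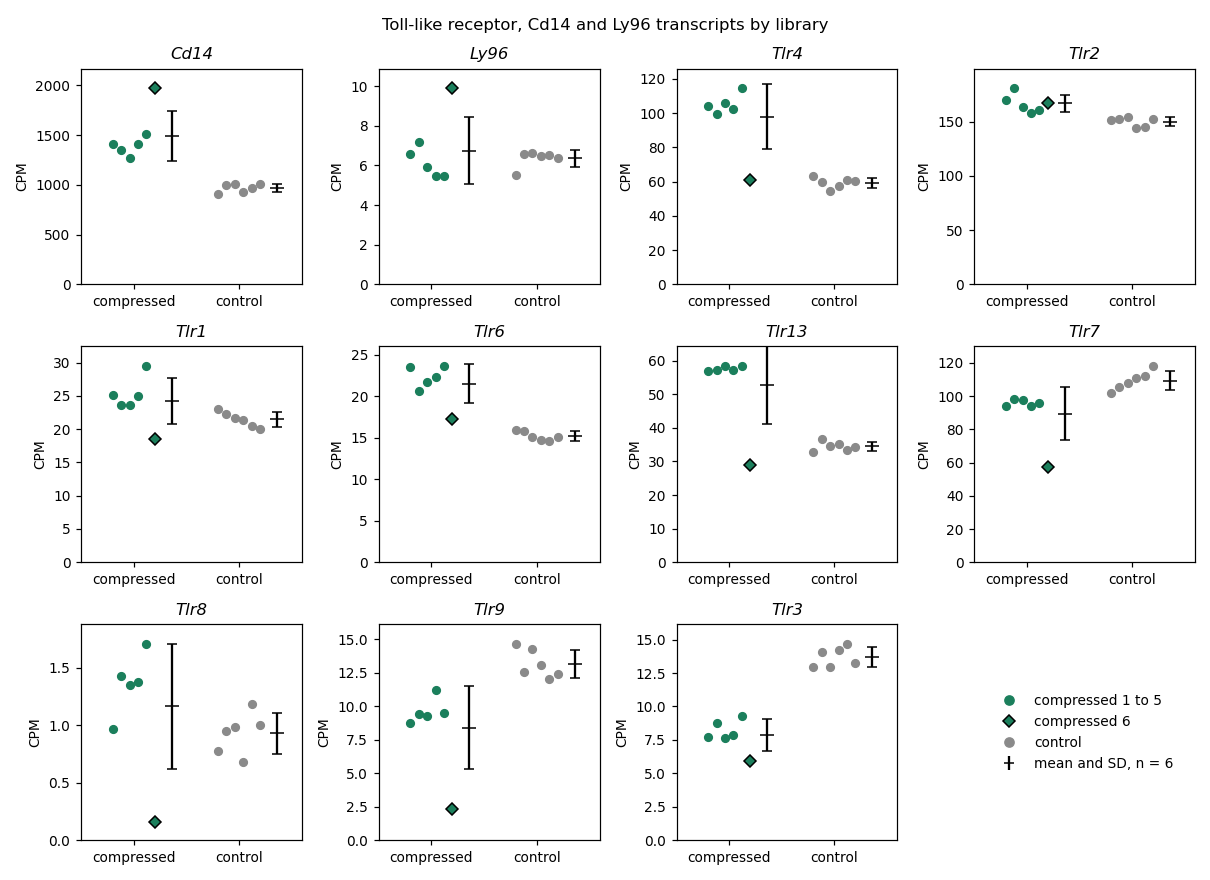
CPM (linear axis from 0) of each of the 10 genes and of Tlr3 in the 6 compressed (left) and 6 control (right) libraries, with the mean and SD beside the points and compressed replicate 6 as a diamond. Tlr4 and Tlr13 are above every control in compressed replicates 1 to 5 and within or below the controls in replicate 6, while Cd14 is above every control in all 6 compressed libraries.

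Tlr4, the receptor for lipopolysaccharide, had a lowest, median and highest level of 60.7, 103 and 115 CPM in compressed libraries and 54.6, 60.1 and 63.2 CPM in control libraries. Compressed replicates 1 to 5 lay above every control, and the library at 60.7 CPM, replicate 6, lay among the controls. In edgeR its log2 fold change came to 0.72 ± 0.12 (estimate ± standard error, adjusted p = 2.19e-04), and to 0.83 ± 0.040 (adjusted p = 5.53e-13) without that library. This was the largest increase of the 8 receptors in either fit, with means of 97.9 ± 18.9 CPM in compressed libraries and 59.3 ± 3.01 CPM in control libraries (SD, n = 6 each).

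Cd14, the surface protein that transfers lipopolysaccharide to Tlr4, was the most abundant of the 10 transcripts. It had 1272, 1413 and 1972 CPM (lowest, median, highest) in compressed libraries and 907, 980.1 and 1008 CPM in control libraries, and the groups did not overlap. It was higher by 0.62 ± 0.091 on the log2 scale (edgeR, adjusted p = 7.94e-05). Replicate 6 held the highest level, and without it the increase was 0.52 ± 0.039 (edgeR, adjusted p = 5.33e-10).

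Ly96, the lipid-binding partner of Tlr4, had 5.48, 6.24 and 9.90 CPM in compressed libraries and 5.53, 6.50 and 6.65 CPM in control libraries. The groups overlapped, and only compressed replicates 2 and 6 were above all controls. Its log2 fold change by edgeR was 0.09 ± 0.13 with all libraries (adjusted p = 0.612) and -0.05 ± 0.077 without replicate 6 (adjusted p = 0.567). No change was detectable against this spread.

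Tlr2, which recognizes lipoproteins together with Tlr1 or Tlr6, had 158, 166 and 181 CPM in compressed libraries and 144, 152 and 154 CPM in control libraries. The groups did not overlap. Its increase by edgeR was 0.15 ± 0.044 on the log2 scale (adjusted p = 0.0110), and 0.15 without replicate 6. The call was lost with library size alone as the scale (0.09, adjusted p = 0.112) and with no low-count filter (0.15, adjusted p = 0.0739).

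Tlr6, which pairs with Tlr2 for diacylated lipoproteins, had 17.3 to 23.6 CPM (mean 21.5 ± 2.36, SD, n = 6) in compressed libraries and 14.6 to 16.0 CPM (mean 15.2 ± 0.559, SD, n = 6) in control libraries. All 6 compressed libraries were above all 6 controls, replicate 6 being the lowest. By edgeR Tlr6 rose by 0.50 ± 0.071 on the log2 scale (adjusted p = 5.52e-05), and by 0.55 without replicate 6.

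Tlr1, the partner of Tlr2 for triacylated lipoproteins and the neighbour of Tlr6 on chromosome 5, had 18.5, 24.4 and 29.5 CPM in compressed libraries and 20.1, 21.5 and 23.1 CPM in control libraries. The groups overlapped through replicate 6 alone: the other compressed libraries held 23.7 to 29.5 CPM. edgeR gave a log2 fold change of 0.17 ± 0.087 (adjusted p = 0.120), which was not called, and one of 0.24 without replicate 6 (adjusted p = 6.15e-04). Tlr1 and Tlr6 share 13.6% and 12.3% of their 50-base exon stretches, so reads from the shared part may be split between them by the counting; no other pair within the family shared any stretch.

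Tlr13, an endosomal receptor of bacterial ribosomal RNA that humans lack, had 29.1, 57.2 and 58.4 CPM in compressed libraries and 32.9, 34.5 and 36.7 CPM in control libraries. The 5 compressed libraries apart from replicate 6 were tightly grouped between 56.9 and 58.4 CPM and above all controls, whereas replicate 6 was below every control. Over all libraries edgeR put the increase at 0.61 ± 0.14 on the log2 scale (adjusted p = 0.00236), and at 0.74 ± 0.031 (adjusted p = 7.01e-14) without that library.

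Tlr7, an endosomal receptor of single-stranded RNA, was the most abundant of the endosomal receptors per kilobase. It had 57.3, 95.0 and 98.3 CPM in compressed libraries and 102, 109 and 118 CPM in control libraries, with no overlap. By edgeR the log2 fold change was -0.29 ± 0.11 (adjusted p = 0.0462). Without replicate 6, the lowest library, it was -0.19 (adjusted p = 6.41e-05), a smaller difference with a smaller spread. The call was kept when compressed replicate 2, 3 or 6 was left out and lost without each of the other 9 libraries (adjusted p of up to 0.0858). Compressed replicates 1 to 5 were also below every control.

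Tlr9, which senses unmethylated CpG DNA, had 2.31, 9.32 and 11.2 CPM in compressed libraries and 12.1, 12.8 and 14.6 CPM in control libraries. The groups did not overlap, and replicate 6 was far below the other compressed libraries, which lay between 8.71 and 11.2 CPM. edgeR gave -0.65 ± 0.25 on the log2 scale (adjusted p = 0.0468) with all libraries and -0.46 ± 0.067 (adjusted p = 4.95e-06) without replicate 6. The call was kept without compressed replicate 4 or 6 and lost without each of the other 10 libraries, with adjusted p-values of up to 0.0854.

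Tlr8, the neighbour of Tlr7 on the X chromosome, was low, with 6 to 56 counts per library. Its levels were 0.159, 1.36 and 1.70 CPM in compressed libraries and 0.678, 0.964 and 1.18 CPM in control libraries, which overlapped. The difference was 0.32 ± 0.35 on the log2 scale (edgeR, adjusted p = 0.484), and 0.55 without replicate 6 (adjusted p = 0.00538). Its call thus turned on that library.

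**Figure D2:**
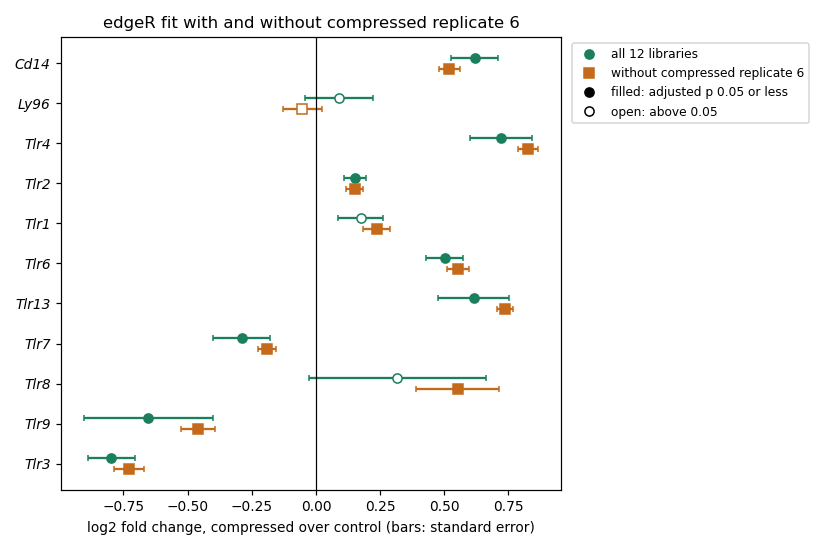
edgeR log2 fold change (compressed over control; bars, standard error) for each gene, from all 12 libraries (circles) and without compressed replicate 6 (squares), filled where edgeR's adjusted p was 0.05 or less. The directions of the 7 called genes of the 10 are the same in both fits, and Tlr1 and Tlr8 are called only in the fit without that library.

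Per kilobase of exon, so that genes can be compared, the order in compressed libraries was Cd14 (859 ± 144), Tlr2 (55.4 ± 2.68), Tlr7 (21.9 ± 3.89), Tlr4 (17.6 ± 3.41), Tlr13 (12.3 ± 2.71), Tlr1 (7.25 ± 1.05), Ly96 (6.61 ± 1.64), Tlr6 (5.78 ± 0.634), Tlr9 (2.41 ± 0.890) and Tlr8 (0.324 ± 0.152), in CPM per kilobase (SD, n = 6 each). Among neighbours in that order, the ranges of mean ± SD overlapped for Tlr7 with Tlr4, Tlr4 with Tlr13, Tlr1 with Ly96 and Ly96 with Tlr6. These values include replicate 6, which was the lowest compressed library for Tlr7, Tlr4, Tlr13 and Tlr6 and the highest for Ly96. The order and overlaps without it may differ and are not given here. In control libraries the order of the 10 genes was the same as with all compressed libraries. It ran from Cd14 at 559 ± 24.2 CPM per kilobase down to Tlr8 at 0.259 ± 0.0497. There the ranges overlapped for Tlr1 with Ly96 and for Tlr6 with Tlr9, while Tlr7 at 26.8 ± 1.39, Tlr4 at 10.7 ± 0.541 and Tlr13 at 8.02 ± 0.316 stood apart.

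Of the other mouse receptor genes, Tlr3, the sensor of double-stranded RNA, was tested. It had 5.89, 7.80 and 9.31 CPM in compressed libraries and 12.9, 13.7 and 14.7 CPM in control libraries, with no overlap. It fell by 0.80 ± 0.092 on the log2 scale (edgeR, adjusted p = 8.32e-06), and by 0.73 without replicate 6. Of its exon bases, 7.32% overlap a gene on the opposite strand, and how the counting treated strand is not stated. Tlr5 had 2 counts in 1 control library and 0 elsewhere, and Tlr11 and Tlr12 had 0 counts in all 12 libraries, where 0 counts allow up to 0.00667 CPM (3 counts over the 12 libraries, counting error only).

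Replicate 6 departed from the other compressed libraries in a way that followed transcript length over all genes. Its log2 CPM minus their mean had a median of 0.52 for the shortest of 4 length classes of near equal gene number, 0.20 and -0.14 for the next 2 and -0.52 for the longest. For the family it was -2.71 for Tlr8, -2.03 for Tlr9, -0.98 for Tlr13, -0.79 for Tlr4, -0.74 for Tlr7, -0.45 for Tlr1 and -0.37 for Tlr6, and 0.01 for Tlr2. It was 0.51 for Cd14 (1732 bases of exon) and 0.70 for Ly96 (1021 bases), the shortest of the 10. All 8 receptors lay below the median of their length class. With the length trend removed, an alternative added after seeing the data, the log2 fold changes were 0.75 for Tlr4, 0.64 for Tlr13, 0.56 for Cd14, -0.26 for Tlr7 and -0.63 for Tlr9, and no call of the 10 changed. The part of transcript length in the results was not tested.

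**Figure D3:**
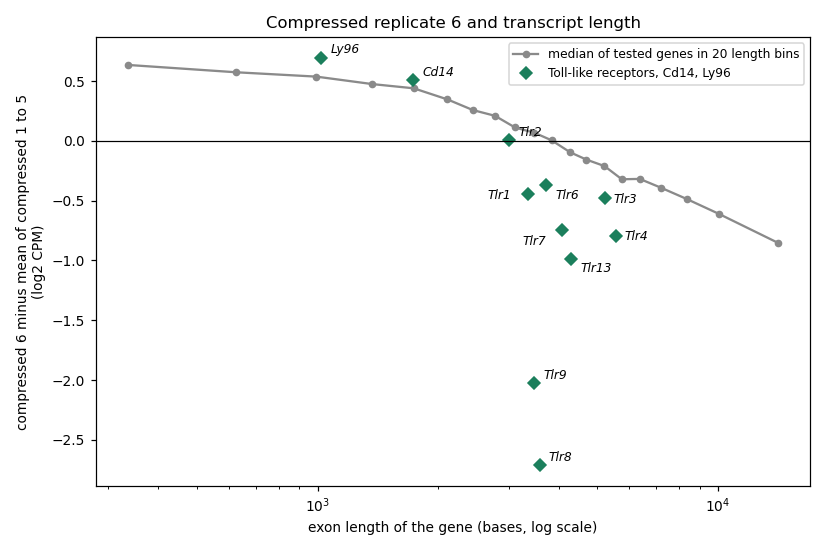
Difference of compressed replicate 6 from the mean of compressed replicates 1 to 5 (log2 CPM) against exon length in bases (log axis), as the median of tested genes in 20 length bins (line) and for each gene of the family (diamonds). The line falls with length, and Tlr8 and Tlr9 lie far below it at -2.71 and -2.03.

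Ratios within a library do not depend on scaling between libraries, and were taken for partners of 1 complex and for receptors that share a chaperone. The 5 ratios were each compared by an exact permutation test over the 924 splits of 6 against 6 (two-sided, adjusted over 5 ratios). Where a library was left out, the test ran over the fewer splits with 5 libraries in its group and 6 in the other. Tlr6 counts per Tlr2 count were 0.103 to 0.147 in compressed libraries and 0.0982 to 0.106 in control libraries, a log2 difference of 0.34 (exact p = 0.00433, adjusted p = 0.0216). The ratio was higher in compressed libraries, and replicate 6 was the 1 library within the control range. This call was lost without control replicate 2, 3 or 4 (adjusted p of up to 0.0649, exact). Tlr9 counts per Tlr7 count were 0.0405 to 0.119 in compressed libraries and 0.105 to 0.144 in control libraries, a log2 difference of -0.48 (exact p = 0.0173, adjusted p = 0.0433), and this call was lost without control replicate 1, 2, 3 or 4 (adjusted p of up to 0.119, exact). Without replicate 6 these differences were 0.41 (adjusted p = 0.00541, exact) and -0.27 (adjusted p = 0.0406, exact). Tlr1 per Tlr2 did not differ detectably, at 0.01 (exact p = 0.913).

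The ratios of both co-receptors to Tlr4 passed the test without replicate 6 and not with it. Cd14 counts per Tlr4 count were 12.0 to 13.8 in compressed replicates 1 to 5, 32.5 in compressed replicate 6 and 14.3 to 18.4 in control libraries. The log2 difference was -0.09 (exact p = 0.818) with all libraries and -0.31 (exact permutation test, adjusted p = 0.00722) without replicate 6. Ly96 counts per Tlr4 count were 0.0479 to 0.0721 in compressed replicates 1 to 5, 0.163 in replicate 6 and 0.0876 to 0.122 in control libraries. The log2 difference was -0.64 (exact p = 0.0390, adjusted p = 0.0649), and -0.89 (exact permutation test, adjusted p = 0.00541) without replicate 6. In 5 of the 6 compressed libraries both ratios lay below every control library.

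**Figure D4:**
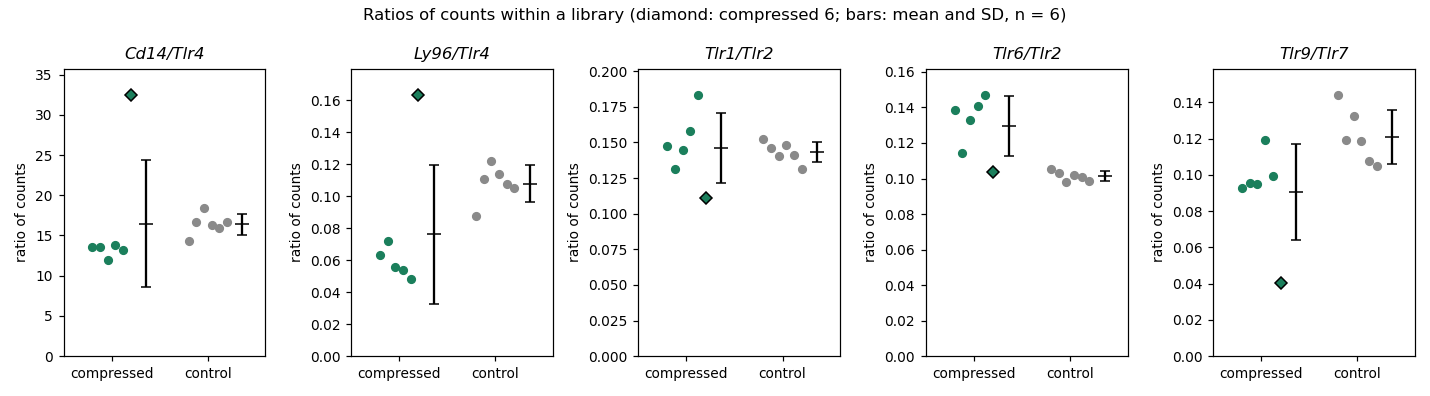
Ratio of counts of 2 genes within each library (linear axis from 0) for the 6 compressed (left) and 6 control (right) libraries, with mean and SD (n = 6 each) and compressed replicate 6 as a diamond. Tlr6 per Tlr2 is above every control in compressed replicates 1 to 5 and within the control range in replicate 6. Compressed replicate 6 is the highest library for Cd14 per Tlr4 at 32.5 and Ly96 per Tlr4 at 0.163.

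Downstream of the receptors, 20 adaptors and kinases were tested, of which 5 rose and 4 fell (median log2 fold change 0.05, against 0.02 over all tested genes). These shares, with all libraries in the fit, are near those over all tested genes, 24.5% higher and 21.9% lower. In that fit the count shows nothing particular to the list. Myd88, the adaptor shared by most receptors, had 58.4 ± 0.920 CPM in compressed libraries and 87.0 ± 3.23 CPM in control libraries (SD, n = 6 each). It fell by 0.58 ± 0.039 on the log2 scale (edgeR, adjusted p = 5.28e-08). Ticam1 and Ticam2, which bridges Tlr4 to Ticam1, rose by 0.55 and 0.68 (adjusted p = 2.16e-05 and 1.35e-06 from edgeR). Among the kinases, Ikbke rose by 1.57 and Irak2 by 0.71, and Traf3, a ubiquitin ligase of the interferon branch, fell by 0.42. Without replicate 6, 10 rose and 6 fell, where 33.8% of all tested genes were higher and 32.2% lower.

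Of 18 negative regulators of the pathway, 10 rose and 2 fell, with a median of 0.19, where 24.5% of all tested genes were called higher and 21.9% lower. The largest increases were those of Il1rl1 (1.41), which encodes the interleukin 33 receptor ST2, Irak3 (1.24), a kinase-dead relative of the Irak kinases, Sigirr (1.24), an inhibitory receptor, and Tnfaip3 (1.23), a ubiquitin-editing enzyme also called A20. Irak3 had 35.8 ± 8.19 CPM in compressed libraries and 15.1 ± 1.36 CPM in control libraries (SD, n = 6 each; adjusted p = 7.36e-06 from edgeR). Sarm1 and Trafd1 fell by 0.71 and 0.20. Without replicate 6 the counts were 13 and 3 (33.8% higher and 32.2% lower over all genes).

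Of 18 genes for the folding, trafficking and cleavage of the receptors, 5 were higher and 4 lower (median 0.06). These shares are near the 24.5% and 21.9% of all tested genes. Without replicate 6, 8 were higher and 4 lower, against 33.8% and 32.2% of all genes. Unc93b1, the chaperone of the endosomal receptors, had 314 ± 11.5 CPM in compressed libraries and 303 ± 12.2 CPM in control libraries and was not called (log2 fold change 0.05, adjusted p = 0.352 from edgeR). Hsp90b1, the folding chaperone also called gp96, had a log2 fold change of -0.03 and was not called either, while Cnpy3, its co-chaperone for receptors, fell by 0.26 (adjusted p = 1.09e-04 from edgeR). Slc15a3, an endolysosomal peptide transporter, rose by 1.66. Rab11a rose by 0.56, and the endosomal proteins Slc29a3 and Rab7b fell by 0.50 and 0.44, and compressed replicate 6 was apart from the other compressed libraries for all 3 (highest for Rab11a, lowest for Slc29a3 and Rab7b). The call of Slc29a3 was lost without compressed replicate 2 or control replicate 1, 2, 3 or 4.

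Of 19 other co-receptors and accessory receptors listed, 6 did not pass the count filter (Lbp, Cd209b, Treml4, Vnn1, Pglyrp1 and Tril). Of the 13 tested, 9 rose and 1 fell (median 0.54), where 24.5% of all tested genes were higher and 21.9% lower. Trem1, an amplifier of receptor signals, rose by 1.97, Clec7a, the β-glucan receptor Dectin-1, by 1.53, Itgam, a subunit of complement receptor 3, by 1.07 and Cd300lf by 1.04. Leaving out replicate 6 put these increases at 1.98 for Trem1, 1.55 for Clec7a, 0.91 for Itgam and 1.05 for Cd300lf. Ager, a receptor of damage signals, fell by 0.61, a call that was lost without compressed replicate 2, 3, 4 or 5 or control replicate 1 or 3. Without replicate 6, 9 were higher and 4 lower (33.8% and 32.2% of all genes).

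Of 19 listed genes that the NF-κB branch drives in response to these receptors, 17 were tested, and Cxcl1 and Il12b did not pass the count filter. All 17 rose, with a median of 1.78, and 0 fell in edgeR, at an unadjusted p under 0.05 or in DESeq2. The list was chosen with earlier results of these data known. Over all tested genes, 24.5% were called higher and 21.9% lower. The cytokine genes Il1a and Il1b rose by 6.17 and 5.87, Nos2, the inducible nitric oxide synthase, by 3.63 and Ptgs2, the inducible cyclooxygenase, by 3.51. Of 20 listed genes of the interferon branch, Ifnb1 and Ifi205 did not pass the count filter. The 18 tested were lower in 9 and higher in 1, with a median of -0.33, against those same shares of 21.9% lower and 24.5% higher. Without replicate 6 they were lower in 13 and higher in 2, where 32.2% of all genes were lower and 33.8% higher. Mx1, an antiviral GTPase, fell by 1.43, Cmpk2 by 1.06 and Ifit1 by 0.93, and the exception was the chemokine gene Ccl5, which rose by 3.45. Transcription factors of the pathway were higher in 10 of 16 and lower in 2 (median 0.33; 24.5% and 21.9% of all genes). Atf3 at 1.36, Cebpb at 1.00, Nfkb2 at 0.65 and Irf8 at 0.56 were among the higher, and Irf7 at -0.47 and Irf1 at -0.20 were those that were lower. Leaving out replicate 6 put Atf3 at 1.32, Cebpb at 0.73, Nfkb2 at 0.67, Irf8 at 0.57, Irf7 at -0.52 and Irf1 at -0.21. Without replicate 6, 10 were higher and 4 lower (33.8% and 32.2% of all genes).

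**Figure D5:**
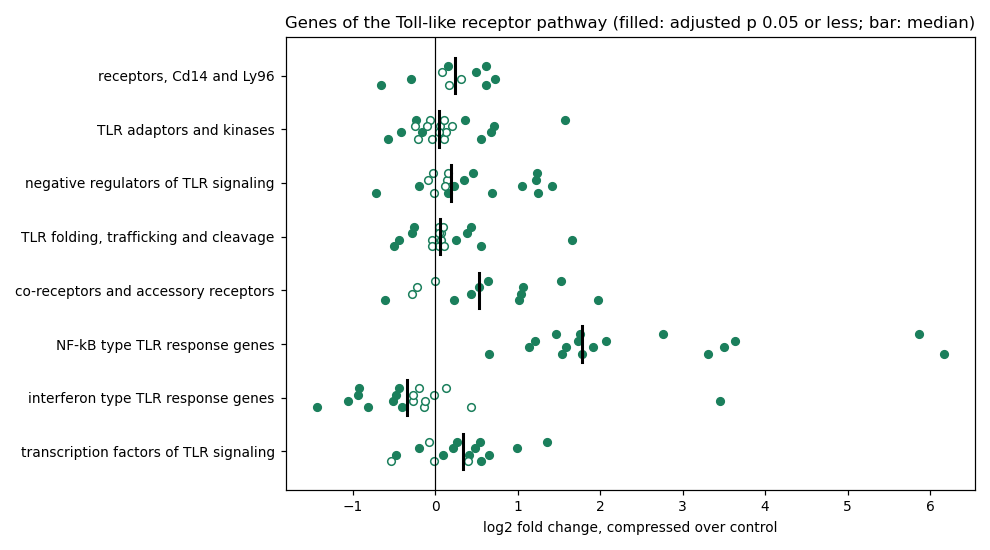
edgeR log2 fold change (compressed over control) for every tested gene of the receptor family and of 7 lists of pathway genes, as points that are filled at an adjusted p of 0.05 or less. A bar marks each median. All points of the NF-κB list are above 0 with a median of 1.78, and the interferon list has a median of -0.33.

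For the 2 of the 10 genes with the largest changes and the 2 with the smallest adjusted p, the most similar genes were found by the root mean square difference of log2 CPM, centred on each gene's mean over the 12 libraries. Nearest to Tlr4 were Csf2rb (0.0580), Etv3 (0.0587) and Ell2 (0.0607). Nearest to Tlr6 were Tecpr1 (0.0303), the adaptor gene Ticam1 (0.0448) and Tm9sf4 (0.0454), and nearest to Cd14 were Lyz2 (0.0505), Sod2 (0.0530) and Junb (0.0550). Nearest to Tlr9 were Tm4sf19 (0.109) and Ankrd52 (0.136), at distances larger than those named for Tlr4, Tlr6 and Cd14. The 12 libraries share their groups and replicate 6, so the likeness is a description.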

How the data were processed

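Directional libraries enriched for mRNA were sequenced from 6 compressed and 6 control samples. Alignment by the authors used STAR 2.7.2, with GRCm39 named in the submitters' notes. The annotation was GENCODE for mouse; not given here are its release, the program that counted reads and how it treated strand. The deposited values are raw counts per Ensembl gene without normalization. Symbols and exon lengths were joined by ID from GENCODE M21 (GRCm38): 51948 of 56941 IDs, with 99.5% of counts, had a symbol, and 97.6% of tested genes a length. Promoters are RefSeq, GRCm38.p6.

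Software was R 4.3.3 (edgeR 4.0.16, limma 3.58.1, DESeq2 1.42.0) and Python 3.11.15 (NumPy 2.4.6, pandas 2.3.3). After filterByExpr (minimum count 10) and TMM scaling, condition alone was fitted and tested with edgeR's quasi-likelihood method, and p-values were adjusted by Benjamini-Hochberg over 15001 genes (threshold 0.05). The standard error was derived from the log2 fold change and its F statistic. CPM is TMM-scaled, and log2 CPM has a prior count of 2. Ratios within a library used a prior of 0.5 counts. The fit was tested on simulated counts. Libraries of the 2 groups with the same number were not treated as pairs in the main fit.

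The 10 genes and the pathway lists were chosen with earlier results of these data known. From each list the text names at most 4 called genes of largest change (1 CPM or more in the higher group) and at most 2 that go against the list. Tlr3, Tlr5, Tlr11 and Tlr12 are always named. For the 2 of the 10 genes with the largest change and the 2 with the smallest adjusted p, the 3 genes of nearest pattern are named, except 1 that is not reported here. Ticam1, Unc93b1, Hsp90b1 and Cnpy3 were named after their values were seen. The alternatives were DESeq2, RLE factors, scaling by library size, leaving out the low-count filter or requiring a mean above 50, a replicate block, an adjusted p of 0.01 and leaving out each library. Removal of the trend with transcript length (lowess, span 0.3) was added after seeing the data.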

Additional observations from a re-analysis of the deposited data

Results flagged for a closer look

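A library was noted here where it lay far from the other 5 of its group, its gap to the nearest of them being more than 0.625 of the range of the group. Of 100 groups looked at (45 genes and 5 ratios, in 2 groups of libraries), 20 met this, and 17 of the 20 were compressed replicate 6. Chance alone would mark about 1 in 20 of independent groups. These 100 come from the same libraries and are not independent, so the 20 cannot be set against that rate.

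Among the receptors, compressed replicate 6 was lowest for Tlr4 (60.7 CPM), Tlr7 (57.3 CPM), Tlr9 (2.31 CPM) and Tlr13 (29.1 CPM), and it was highest for Cd14 (1972 CPM). In the control group, replicate 1 was lowest for Ly96 at 5.53 CPM.

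In the pathway, compressed replicate 6 was lowest for Traf3 (36.5 CPM), Tnfaip3 (50.1 CPM), Slc29a3 (7.67 CPM), Rab7b (27.3 CPM) and Irf8 (108 CPM). It was highest for Sigirr (5.84 CPM), Rab11a (88.5 CPM), Itgam (197 CPM) and Cebpb (138.0 CPM). Compressed replicate 5 was highest for Clec7a at 34.5 CPM, and control replicate 1 was highest for Irak3 at 17.8 CPM.

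For the ratios of counts, compressed replicate 6 was highest for Cd14 per Tlr4 (32.5) and for Ly96 per Tlr4 (0.163) and lowest for Tlr9 per Tlr7 (0.0405). Its departure moved with transcript length over all genes, and the part of length in these values was not tested.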

How the results depend on the processing

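No fold change of a receptor, of Cd14 or of a named pathway gene that was called changed direction under any alternative. With each library left out, 5 to 7 genes of the family were called higher and 0 to 2 lower. Over all tested genes, those fits called 3326 to 5117 higher and 2999 to 4864 lower. Tlr2 was not called by edgeR with library size alone (adjusted p = 0.112) or with no low-count filter (adjusted p = 0.0739). With no low-count filter 1 was called lower, with replicate number as a block 1, and at an adjusted p of 0.01 it was 0. In the fit with that replicate block, Tlr7 was at -0.31 (adjusted p = 0.0753 from edgeR) and Tlr9 at -0.74 (adjusted p = 0.0408). Same-numbered libraries had correlations of -0.12 to 0.040 across genes, and 0 of 6 correlated best with their own number. These were taken on differences from group means that include compressed replicate 6, so they cannot exclude a shared culture or batch by number.

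Counts for the lists moved as follows, and calls over all tested genes moved too. With each library left out, 3326 to 5117 of all tested genes were higher and 2999 to 4864 lower. At an adjusted p of 0.01, 18.6% were higher and 16.2% lower. For the other settings in this paragraph the share over all tested genes is not given here. At an adjusted p of 0.01, adaptors called lower were 1 and folding, trafficking and cleavage genes called lower 2. At that threshold, co-receptors called lower were 0 and transcription factors called lower 1. With a mean normalized count over 50, negative regulators called lower were 1 and co-receptors called lower 0. Co-receptors called lower were 2 with DESeq2, with library size alone and with the length trend removed, and 0 with no low-count filter. With the length trend removed, adaptors called higher were 9. With each library left out, adaptors called higher ranged over 5 to 10 and lower over 2 to 6. In those fits, folding, trafficking and cleavage genes called higher ranged over 5 to 8 and co-receptors called lower over 0 to 4. Interferon genes called higher ranged over 1 to 2 there, and transcription factors called lower over 2 to 4. The log2 differences of the ratios ranged over -0.31 to -0.019 for Cd14 per Tlr4, -0.89 to -0.53 for Ly96 per Tlr4, 0.30 to 0.41 for Tlr6 per Tlr2 and -0.58 to -0.27 for Tlr9 per Tlr7. Tlr2 lost its call with library size alone, which shifted the median of all genes by -0.06 on the log2 scale. Depth limits Tlr8, at 6 to 56 counts a library, and Sarm1, at 8 to 24. Counts were also low for Ager, at 11 to 51 a library, Mx1, at 13 to 67, and Trem1, at 19 to 94. The cause of these changes was not tested.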
